A study of Mus musculus with 24 samples.

Results

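Expression of 9 genes of the renin-angiotensin system and its steroid-receptor arm was followed in mouse thoracic aorta, taken by symbol from a gene count table of 25941 genes: Agt, Ren1, Ace, Enpep, Agtr1a, Agtr1b, Agtr2, Mas1 and Nr3c2. Each of the 9 symbols had 1 row in the table. The mice were wild-type C57BL/6 males aged 10 to 12 weeks, and 3 groups of 8 were compared. Control mice ate plain chow, while the others ate chow delivering celecoxib at 100 mg/kg/day or rofecoxib at 50 mg/kg/day, for 3 weeks. Both drugs are selective inhibitors of cyclooxygenase-2. Every mouse, controls included, received interleukin-1β at 10 ug/kg into the peritoneum, and aortas were taken 4 h later at zeitgeber time 11. No group without interleukin-1β was analysed here, so the values describe an aorta under this stimulus. The doses of the drugs differed, so celecoxib against rofecoxib compares these groups and not the drugs at a matched dose.

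The renin-angiotensin system makes the pressor peptide angiotensin II by successive cleavage. Renin, secreted mainly by the kidney, cuts angiotensinogen, which comes mainly from the liver, to angiotensin I, and angiotensin-converting enzyme, abundant on endothelium, removes a further dipeptide to give angiotensin II. In the vessel wall angiotensin II acts through type 1 receptors to contract smooth muscle and promote matrix and oxidant production, while the type 2 receptor and the Mas receptor are known for opposing actions. Angiotensin II also drives the adrenal cortex to release aldosterone, the ligand of the mineralocorticoid receptor, which vascular cells carry too.

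In this tissue the system's transcripts were dominated by the converting enzyme. Levels between genes are compared as CPM per kb, the TMM-scaled count relative to library size (CPM) divided by exon length. In control aortas Ace stood at 79.2 ± 7.96 CPM per kb (SD, n = 8), Enpep at 5.67 ± 0.87 and Nr3c2 at 3.87 ± 1.34. Agtr1a followed at 1.21 ± 0.36, Agtr1b at 0.96 ± 0.37 and Agt at 0.68 ± 0.29 CPM per kb, and these 3 ranges overlapped between neighbours. Ren1 lay at 0.25 ± 0.15, Mas1 at 0.052 ± 0.024 and Agtr2 at 0.0017 ± 0.0048 CPM per kb. The lowest control library for Ace, at 62.1 CPM per kb, was above the highest for Enpep, at 7.30, while the ranges of Enpep and Nr3c2 overlapped. Further down, Nr3c2 stayed above Agtr1a in every control, Agt overlapped with Ren1 and Ren1 with Mas1, and Mas1 lay above Agtr2. Ace, Enpep, Nr3c2, Agtr1a, Agtr1b and Agt passed the filter on low counts and were tested. Ren1, Mas1 and Agtr2 did not pass, and their counts are given without a test.

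Of the 6 tested genes, 1 changed. Ace fell with rofecoxib by 0.53 on the log2 scale, to 0.69 of the control level, by the quasi-likelihood test of edgeR, Benjamini-Hochberg adjusted across the 14528 genes that entered it (adjusted p = 0.0075). That 1 of 6 stands beside 6.94% of all tested genes called for rofecoxib against control (1008 genes), 3.88% higher (563) and 3.06% lower (445); 28.2% reached an unadjusted p under 0.05. With library sizes alone in place of TMM scaling the split over all genes was 1106 higher and 310 lower. None of the 6 was called for celecoxib against control, where 0.0344% of all genes were called (5 genes), 0.00688% higher (1) and 0.0275% lower (4). With library sizes alone these were 3 higher and 4 lower. None was called between the drug groups either, where the share was 4.89% (710 genes), 0.564% higher and 4.32% lower in celecoxib. At an unadjusted p under 0.05 there was 1 of the 6 for celecoxib against control (13.6% of all genes) and there were 2 between the drug groups (23% of all genes). For celecoxib against control DESeq2 and limma voom also called 0 of the 6, and between the drug groups DESeq2 called 1, Agtr1a, and limma voom 0. The median log2 fold change of the 6 was -0.17 for celecoxib and 0.28 for rofecoxib, against 0.00 and 0.02 over all tested genes. Both drug groups were compared with the same 8 controls.

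**Figure D1:**
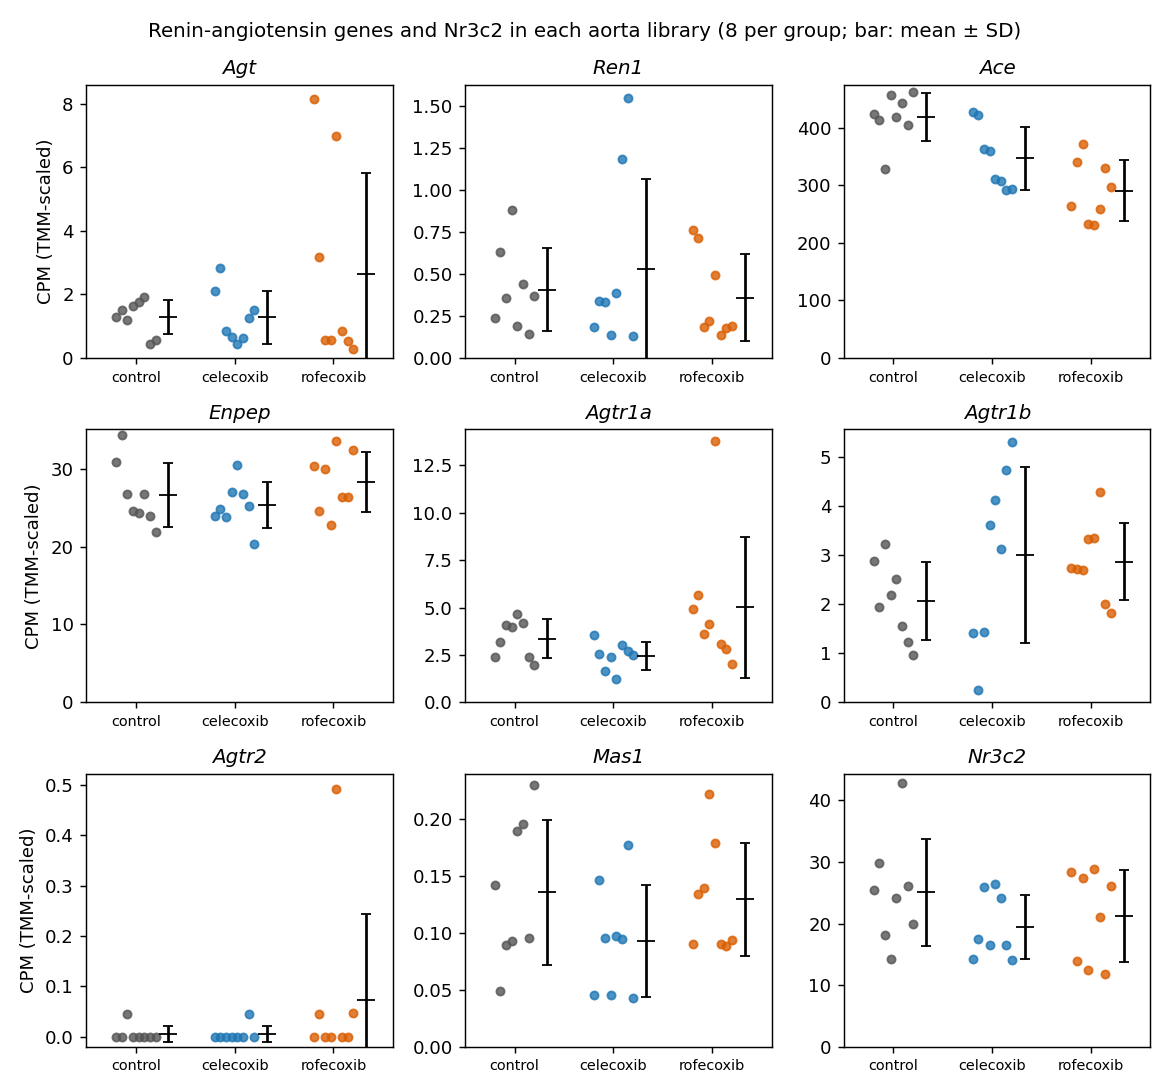
Level of each of the 9 genes in every library. The y axis is CPM after TMM scaling, starting at or just under 0 and differing between panels, points are libraries in replicate order, and bars give the mean ± SD over 8 (cut at 0). Ace steps down from control (419 CPM) through celecoxib (347) to rofecoxib (291), and single rofecoxib libraries stand far up in Agt, Agtr1a and Agtr2.

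The regulatory sequence just upstream of the start sites is shown for the gene that changed and for 3 others, since the members differ there in the elements they carry. The sequences come from the RefSeq table for GRCm38.p6, which held 250 bases upstream of a start for 8 of the 9 genes, in 9 windows, and none for Agtr1a. Capitals mark a TATA box (TATAAA, either strand) or a GC box of the Sp/KLF type (GGGCGG, either strand, overlapping matches counted). The first Ace window, chr11:105967698-105967947 on the plus strand, holds 4 GC boxes, of which 2 overlap, and a TATA box on the opposite strand 31 bases before the start. The other lines give the 40 bases around the TATA box of Agt at chr8:124569711-124569750 (minus strand), of Ren1 at chr1:133350631-133350670 (plus strand) and of Agtr1b at chr3:20367183-20367222 (minus strand).
Ace: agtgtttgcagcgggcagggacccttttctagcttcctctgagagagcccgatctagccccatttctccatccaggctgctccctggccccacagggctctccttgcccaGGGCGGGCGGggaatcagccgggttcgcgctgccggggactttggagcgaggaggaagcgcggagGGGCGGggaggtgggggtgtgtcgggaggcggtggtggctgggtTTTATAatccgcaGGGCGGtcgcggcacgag
Agt: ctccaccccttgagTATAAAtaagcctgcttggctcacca
Ren1: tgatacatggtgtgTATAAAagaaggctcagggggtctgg
Agtr1b: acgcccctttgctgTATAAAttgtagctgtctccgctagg

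TATAAA was found in 12.4% of the 32851 upstream windows of the table and GGGCGG in 32.7%. The half-site AGAACA, to which steroid receptors such as the mineralocorticoid receptor bind, was in none of the 9 windows and in 16.1% of all. The TATA box began 30 bases before the start in Agt, 29 in Ren1 and 31 in Agtr1b, and Enpep held one 52 bases before its start. Nr3c2 had 3 GC boxes and no TATA box, and Mas1, Agtr2 and the second Ace window held none of the 3 motifs. That second window, chr11:105974939-105975188, lies inside the gene. The deposited counts are per gene, so they cannot show which of the starts was used in these aortas. A match describes the letters and not a bound site.

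The precursor and the protease that opens the cascade were both scarce. Agt encodes angiotensinogen (ENSMUSG00000031980, on mm9 chr8:127080232-127093808). In controls it ran from 0.43 through a median of 1.39 to 1.90 CPM, with celecoxib from 0.44 through 1.05 to 2.82, and with rofecoxib from 0.28 through 0.72 to 8.16. The groups overlapped widely, and most rofecoxib libraries were below the control median, but rofecoxib replicate 1 (182 reads) and replicate 5 (156 reads) held more of the transcript than any other library. The log2 fold change was 1.04 for rofecoxib (SE 0.59, 95% interval -0.17 to 2.26, edgeR adjusted p = 0.242) and 0.00 for celecoxib (SE 0.60, -1.25 to 1.24). Without rofecoxib replicate 1 the rofecoxib value was 0.53, without replicate 5 it was 0.66, and limma voom with sample weights gave -0.027. Those 2 libraries also had the highest summed levels of 8 neutrophil markers of all 24, 133 CPM in replicate 1 and 103 in replicate 5, against 21.4 to 87.5 CPM in controls. Over the 24 libraries, with group means removed, Agt had r of 0.66 with the neutrophil markers (rho 0.62, and 0.51 without the 2 libraries farthest from the median of the marker level) and 0.44 with 12 general adipocyte markers (rho 0.36, and 0.21). The adipocyte sum was highest among rofecoxib libraries in replicate 1, 5924 CPM, but replicate 5 was at 3399, under the group median of 4258. Several other lists had r further from 0 than the adipocyte markers. Pericyte markers had -0.55 (-0.50 without the 2 farthest libraries) and smooth muscle markers -0.49 (-0.35). Schwann cell markers had 0.51 (0.32), sympathetic neuron genes 0.48 (0.31), macrophage markers 0.46 (0.48) and endothelial markers 0.45 (0.36). The part of any of these cell types in the Agt values was not tested.

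Liver, the main source of circulating angiotensinogen, left almost no transcripts in these samples. The 5 liver markers, Alb among them, summed to at most 2.48 CPM in any library, and none passed the filter. In bulk aorta, a lower or higher value can reflect fewer cells of a type or less RNA per cell, and these cannot be told apart.

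Ren1 encodes renin (ENSMUSG00000070645, chr1:135246885-135257104) and gave 225 reads over the 24 libraries. Control libraries held 3 to 19 reads, celecoxib libraries 3 to 35 and rofecoxib libraries 3 to 17, with means of 0.41, 0.53 and 0.36 CPM. No library was without a read and the groups overlapped. The highest were celecoxib replicate 7 with 35 reads and replicate 6 with 25, and the other 6 celecoxib libraries had at most 8. Kidney markers, of which 5 of 6 had a row, summed to at most 0.45 CPM.

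Ace, which makes angiotensin II and also degrades bradykinin (ENSMUSG00000020681, chr11:105829057-105851480), gave the clearest difference. Control libraries ran from 328 through a median of 422 to 463 CPM, celecoxib libraries from 293 through 335 to 427, and rofecoxib libraries from 230 through 280 to 372. Of the rofecoxib libraries 5 of 8 lay below every control, and the other 3 lay above the lowest control only, replicate 3, since the remaining controls began at 405. Of the celecoxib libraries 4 of 8 lay below every control, and replicates 1 and 2 were inside the main control range. The mean was 419 ± 42.1 CPM in controls, 347 ± 55.0 with celecoxib and 291 ± 52.7 with rofecoxib (SD, n = 8 each).

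The fall of Ace with rofecoxib, -0.53 (SE 0.10, 95% interval -0.74 to -0.31), kept its call in all 24 fits that each left out 1 library, at adjusted p from 0.0042 to 0.0178. The value for celecoxib, -0.27 (SE 0.10, -0.49 to -0.06), did not pass after adjustment (adjusted p = 0.266). Celecoxib minus rofecoxib was 0.26 (SE 0.10, 0.04 to 0.47, adjusted p = 0.139), so a difference between the drug groups was not established at these unequal doses. The replicate numbers split the celecoxib value: it was -0.04 when only replicates 1 to 4 were fitted and -0.52 from replicates 5 to 8 (edgeR adjusted p = 0.921 and 0.0159). For rofecoxib the call was lost in replicates 1 to 4 alone, at -0.42 (adjusted p = 0.180). It was also lost with adipocyte and endothelial levels as covariates, at -0.49 (adjusted p = 0.0718).

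Endothelial cells are known for carrying the enzyme. Levels of their markers and of those of other cell types are given as a description only. The 11 endothelial markers summed to 749 to 993 CPM in controls, 740 to 1317 with celecoxib and 686 to 1315 with rofecoxib. All 11 were above 0 for rofecoxib on the log2 scale at a median of 0.35, and 3 of them rose. The 10 smooth muscle markers summed to 29026 to 39412 CPM in controls and 28320 to 42339 with rofecoxib, where 10 of 10 were below 0 at a median of -0.17 and 1 of them fell. The 9 fibroblast markers had a median of 0.05, with 1 lower. Other lists went both ways. Of 6 tested pericyte markers 1 was above 0 for rofecoxib, at a median of -0.07, and of 4 tested skeletal muscle markers 0 were, at -0.64. Of 5 cardiac muscle markers 3 were above 0, at a median of 0.0017. All 12 general adipocyte markers were above 0 for rofecoxib at a median of 0.84, with 3 higher, and summed to 1363 to 5924 CPM against 1024 to 5028 in controls. All 7 Schwann cell markers were above 0 at a median of 1.01 with 1 higher, and all 9 macrophage markers at a median of 0.34 with 1 higher. Of all tested genes 54.9% were above 0 for rofecoxib, and edgeR called 3.88% higher and 3.06% lower. None of these markers was at 0. The covariate fit above cannot separate tissue makeup from diet, since the adipocyte markers themselves differed with rofecoxib. The part of tissue makeup in the Ace result was not tested further. The exons of Ace overlap those of the antisense gene Gm11651 by 295 bases in GENCODE M21, and the counting strand was not given, so reads in that stretch cannot be assigned.

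Enpep encodes aminopeptidase A, which turns angiotensin II into angiotensin III (ENSMUSG00000028024, chr3:128971891-129035840), and it was among the steadiest of the set. Controls ran from 21.9 through 25.6 to 34.3 CPM, celecoxib libraries from 20.3 through 25.0 to 30.5 and rofecoxib libraries from 22.8 through 28.2 to 33.5. The 3 groups overlapped almost entirely. The log2 fold change was -0.08 for celecoxib (95% interval -0.27 to 0.12) and 0.09 for rofecoxib (-0.11 to 0.28).

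**Figure D2:**
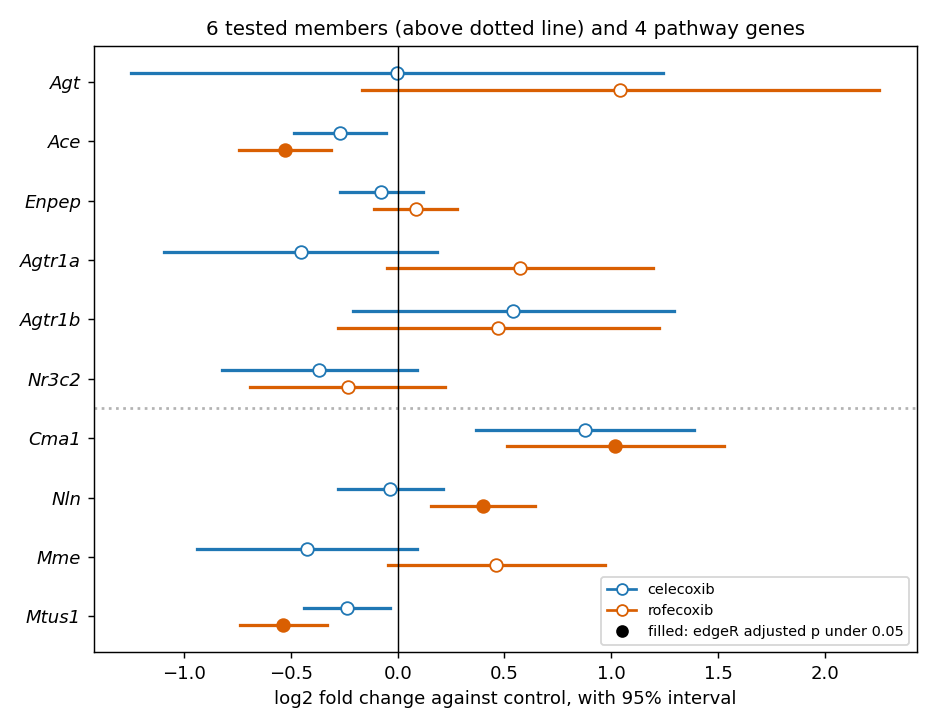
Log2 fold change against control with its 95% interval (x axis) for the 6 tested members and, under the dotted line, 4 genes of the wider pathway; blue is celecoxib and orange rofecoxib. Filled points passed the edgeR test: Ace and Mtus1 are lower and Cma1 and Nln higher with rofecoxib, and no celecoxib point is filled.

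The type 1 receptor is made from a gene pair in mice. Agtr1a, the predominant form in most mouse tissues (ENSMUSG00000049115, chr13:30428108-30474938), ran from 1.98 through 3.60 to 4.68 CPM in controls and from 1.26 through 2.52 to 3.55 with celecoxib. With rofecoxib it ran from 2.01 through 3.87 to 13.8. Celecoxib libraries sat low, 2 of 8 below every control, and rofecoxib libraries 1, 2 and 5 lay above every control, the last far from the rest with 308 reads against at most 127 elsewhere. Against control the log2 fold change was -0.45 for celecoxib (SE 0.31, 95% interval -1.09 to 0.18, edgeR adjusted p = 0.522) and 0.57 for rofecoxib (SE 0.30, -0.05 to 1.20, adjusted p = 0.213). Celecoxib minus rofecoxib was -1.03 (SE 0.31, -1.66 to -0.39), at an edgeR adjusted p of 0.0514.

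That gap between the drug groups rested in large part on 1 library. Without rofecoxib replicate 5 it was -0.61 (edgeR adjusted p = 0.124), and rofecoxib against control was 0.16. It passed the threshold in 4 of the 24 fits that left out 1 library, namely celecoxib replicate 1, rofecoxib replicate 6 or 8, or control replicate 4, and with DESeq2 (adjusted p = 0.0200), with library sizes alone (adjusted p = 0.0483) and in replicates 1 to 4 alone (adjusted p = 0.0348). It did not pass with limma voom, at -0.77 (adjusted p = 0.10), or with the replicate number as a block, at -0.82 (edgeR adjusted p = 0.124). With adipocyte and endothelial levels as covariates it was -0.56 (edgeR adjusted p = 0.860). Rofecoxib replicate 5 stood apart in nerve transcripts too. Its 4 sympathetic neuron genes, including the noradrenaline synthesis genes Th and Dbh, summed to 305 CPM, while the next rofecoxib library had 41.3 and the highest control 76.5. Its 7 Schwann cell markers summed to 514 CPM, against a control range of 38.6 to 177. Other lists followed Agtr1a as well. With group means removed, r was 0.68 for sympathetic neuron and 0.72 for Schwann cell lists (0.47 and 0.48 without the 2 farthest libraries). It was 0.61 for neutrophil and 0.60 for endothelial markers (0.56 and 0.54), and -0.59 for pericyte markers (-0.49). Rofecoxib replicates 1, 2 and 5 had neutrophil sums of 133, 98.2 and 103 CPM, against at most 87.5 in controls. With the sympathetic neuron level as a covariate the difference between the drug groups was -0.62 (edgeR adjusted p = 0.117). That list was added after the data were seen, and replicate 5 is extreme on it. The fit is therefore not independent of leaving that library out, which gave -0.61. The part of any cell type in the Agtr1a values was not tested otherwise.

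**Figure D3:**
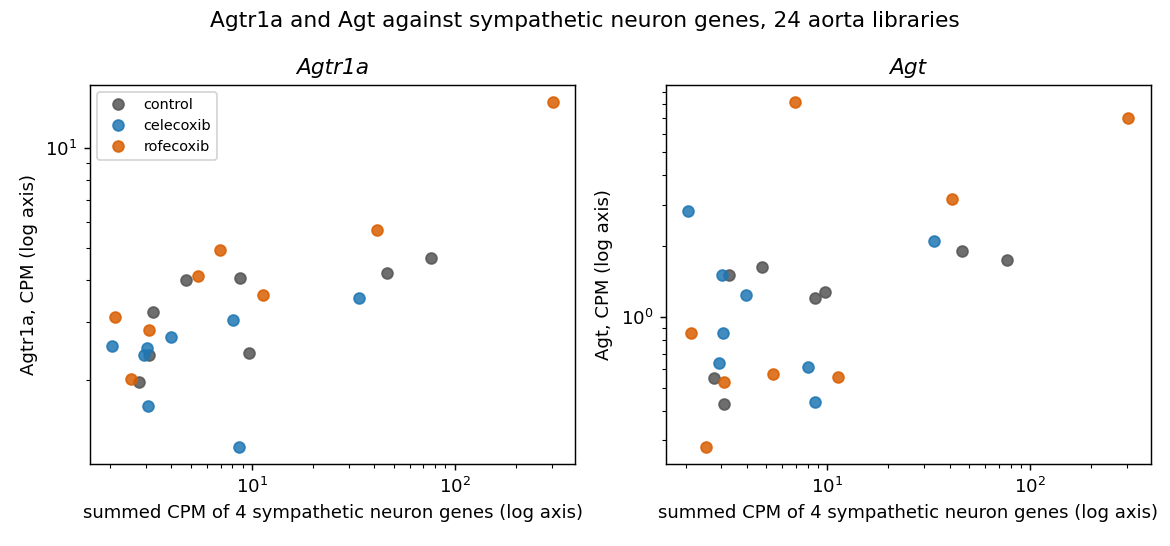
Agtr1a (left) and Agt (right), in CPM on a log axis, against the summed CPM of 4 sympathetic neuron genes on a log axis, 1 point per library, 8 per group. Rofecoxib replicate 5 is the point at the far right (305 CPM) in both panels and the highest in Agtr1a (13.8 CPM), while the highest Agt value (8.16 CPM, rofecoxib replicate 1) has little neuronal signal.

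Agtr1b, the second type 1 receptor gene (ENSMUSG00000054988, chr3:20213193-20266301), was more widely spread among celecoxib libraries than its partner, with a coefficient of variation of 59.9% against 29.4%. Controls ran from 0.96 through 2.06 to 3.22 CPM, celecoxib libraries from 0.24 through 3.37 to 5.31 and rofecoxib libraries from 1.83 through 2.73 to 4.27. Celecoxib libraries were split: 4 of 8 lay above every control, and replicate 2, with 5 reads, lay below all of them. The log2 fold change was 0.54 for celecoxib (SE 0.36, 95% interval -0.21 to 1.29, edgeR adjusted p = 0.516) and 0.47 for rofecoxib (SE 0.36, -0.28 to 1.22, adjusted p = 0.395). By replicate number, the log2 ratio of celecoxib to control means was -0.61 in replicates 1 to 4 and 1.46 in replicates 5 to 8. The sources used here do not say what the numbers stand for.

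The share of type 1 receptor reads that came from Agtr1b was 37.6 ± 8.32% in controls, 50.3 ± 22.4% with celecoxib and 40.2 ± 11.3% with rofecoxib (SD, n = 8). Agtr1b outnumbered Agtr1a in 1 control, 5 celecoxib and 1 rofecoxib library. These are reads without correction for exon length, 2.147 kb for Agtr1b and 2.786 kb for Agtr1a, and per kb the Agtr1b share would be higher. In celecoxib the share ran from 8.77% to 76.6%, and in controls from 27.1% to 54.5%. The summed level of both genes was 5.43 ± 1.55, 5.45 ± 1.82 and 7.87 ± 4.04 CPM in that order of groups. The pair share 33 runs of 50 bases, 1.13% of those in Agtr1a and 1.54% of those in Agtr1b transcripts of GENCODE M21; reads from these runs could be assigned to either.

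Agtr1b followed genes that mark position along the body axis. Over the 24 libraries, after removing group means, the genes most like it by Pearson's r were Hoxa10 (0.92), Hoxa9 (0.91) and Hoxc10 (0.90), out of 13157 genes whose mean reached 1 CPM. Posterior Hox genes are expressed towards the tail end of the trunk, so their level varies along the length of a vessel. A list of 7 posterior Hox genes was drawn up after this was seen and includes those 3, so that its level, the mean log2 CPM of the 7, follows Agtr1b by the choice of its members. Celecoxib replicate 2, the lowest for Agtr1b, also had the lowest Hox sum, 5.94 CPM, and the highest sum of 5 cardiac muscle markers, 810 CPM against at most 72.3 in any control or rofecoxib library.

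Ace went the other way, with r of -0.54 against the posterior Hox level (rho -0.56, and -0.44 without the 2 farthest libraries). Control replicate 3, the control with the least Ace, had the highest Hox sum of the controls, 37.3 CPM. It stood further apart in 7 skeletal muscle markers, at 86.4 CPM against 3.82 to 6.30 in the other controls, and Ace had r of -0.49 with that list (rho -0.28, and -0.22 without the 2 farthest libraries). Without control replicate 3 the fall of Ace with rofecoxib was -0.57 (edgeR adjusted p = 0.0055). The 7 Hox genes had a median log2 fold change of 0.53 for rofecoxib and 0.15 for celecoxib, with 0 called in either by edgeR, DESeq2 or limma voom (at an unadjusted p under 0.05, 1 for rofecoxib and 0 for celecoxib). With the Hox level as a covariate the log2 fold change of Ace with rofecoxib was -0.44 (edgeR adjusted p = 0.0255). Agtr1b was then at -0.10 for rofecoxib and 0.27 for celecoxib. Since the list was chosen for its likeness to Agtr1b, that fit is no test for this gene. These correlations describe libraries that share their depth and scaling, and the part of the stretch of aorta sampled was not tested further.

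**Figure D4:**
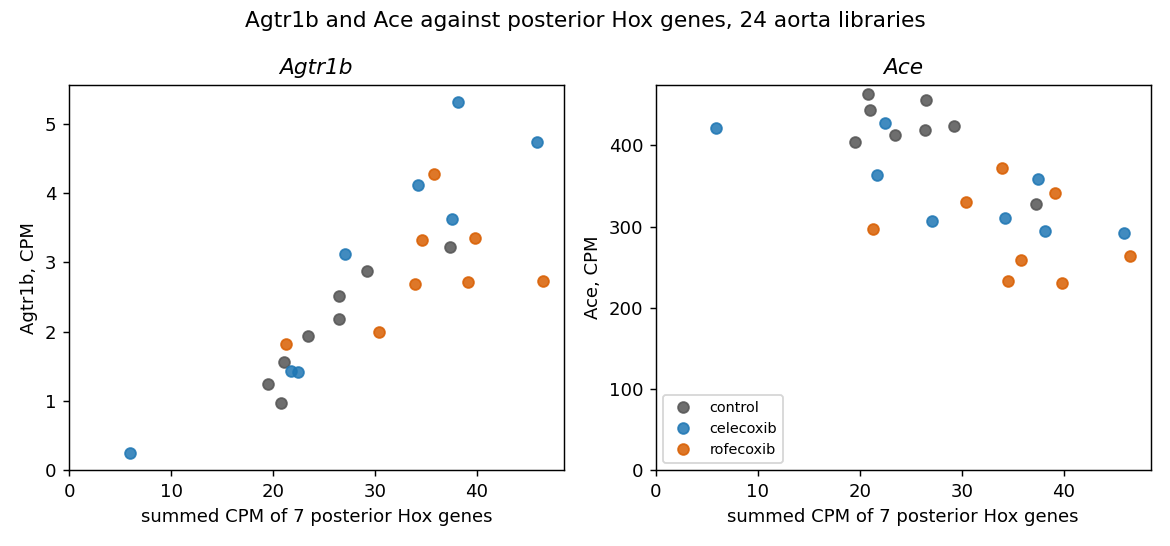
Agtr1b (left) and Ace (right), in CPM, against the summed CPM of 7 posterior Hox genes, 1 point per library, 8 per group, both axes from 0. The Hox genes were chosen for their likeness to Agtr1b, which climbs with their sum from celecoxib replicate 2 at the lower left (0.24 CPM at 5.94), and Ace tends downwards, with rofecoxib libraries mostly at higher Hox sums.

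The receptors with opposing actions were barely detected. Agtr2, the type 2 receptor (ENSMUSG00000068122, chrX:21061468-21066492), gave 15 reads in all, 1 in controls, 1 with celecoxib and 13 with rofecoxib. Of those 13, 11 were in rofecoxib replicate 5, the library rich in neuronal transcripts, and 19 of the 24 libraries had none, a count of 0 that allows up to 3 reads each (counting error only). Mas1, the receptor for angiotensin 1-7 (ENSMUSG00000068037, chr17:13033743-13061211), gave 1 to 5 reads in every library, 23 in controls, 16 with celecoxib and 23 with rofecoxib. At this depth differences in either receptor between the diets were not detectable apart from that 1 library.

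Nr3c2 encodes the mineralocorticoid receptor, which binds aldosterone and also glucocorticoids (ENSMUSG00000031618, chr8:79423139-79769113). Controls ran from 14.3 through 24.8 to 42.8 CPM, celecoxib libraries from 14.1 through 17.0 to 26.5, and rofecoxib libraries from 11.8 through 23.7 to 28.9. The groups overlapped, and 3 of 8 rofecoxib libraries and 1 of 8 celecoxib libraries lay below every control. The log2 fold change was -0.37 for celecoxib (SE 0.22, 95% interval -0.83 to 0.09, edgeR adjusted p = 0.470) and -0.23 for rofecoxib (SE 0.22, -0.69 to 0.22, adjusted p = 0.495). The intervals exclude a loss beyond 0.83 and 0.69 on the log2 scale. Its exons overlap those of Gm10649, on the opposite strand, by 247 bases.

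Among single libraries the Nr3c2 level ran inversely to brown adipocyte markers (r = -0.71, rho = -0.75, 24 libraries, group means removed; -0.75 without the 2 farthest libraries). The genes most like it were Rab32 (r = 0.94), Map3k8 (0.93) and Lix1l (0.92), and those most like Ace were Sulf2 (0.84), Prelp (0.81) and Arsb (0.81). For Agtr1a they were Celf4 (0.88), Mapt (0.86) and Evl (0.86), of which Mapt encodes the neuronal protein tau. For Agt they were Trf (0.86), Lass6 (0.82) and Ighm (0.80), and for Enpep Pqlc1 (0.83), Pvr (0.81) and Ddx23 (0.80). Within the set the strongest pairs were Agt with Agtr1a (r = 0.77), Ace with Agtr1b (-0.63) and Enpep with Nr3c2 (0.63).

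Other enzymes that handle angiotensin were taken from a list of 18 peptidases, 16 of them tested. With rofecoxib 2 rose and 0 fell in edgeR, where 3.88% of all tested genes were higher and 3.06% lower. At an unadjusted edgeR p under 0.05 there were 7 (28.2% of all tested genes), and 13 of 16 were above 0. In DESeq2 1 fell and 2 rose, and with limma voom 2 fell and 3 rose. Over all genes DESeq2 called 917 higher and 879 lower, and limma voom 1408 and 1040. With celecoxib 0 of 16 were called by edgeR, DESeq2 or limma voom, and 10 were above 0. An unadjusted edgeR p under 0.05 was reached by 2 (13.6% of all tested genes). Cma1, a mast cell chymase, ran in controls from 0.83 through 1.23 to 1.79 CPM and with rofecoxib from 0.80 through 2.76 to 3.28. It rose by 1.02 (SE 0.25, edgeR adjusted p = 0.0211), with 7 of 8 rofecoxib libraries above every control, and kept its call in all 24 fits that left out 1 library. The call was lost with adipocyte and endothelial levels as covariates, at 0.47 (adjusted p = 0.394), in replicates 1 to 4 and 5 to 8 alone (adjusted p = 0.104 and 0.210) and with the Hox covariate (adjusted p = 0.0693). With celecoxib Cma1 was at 0.88 (SE 0.25, 95% interval 0.37 to 1.39, adjusted p = 0.188), and 4 of 8 libraries were above every control. The mast cell list of 8, which holds Cma1 itself, had 6 tested markers, all above 0 for rofecoxib at a median of 0.73 with 2 higher, and summed to 34.6 to 55.7 CPM in controls and 41.7 to 67.1 with rofecoxib. The part of mast cell number in the Cma1 value was not tested.

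Nln, neurolysin, which cleaves angiotensin I to angiotensin 1-7 among other peptides, rose with rofecoxib from 11.6 ± 1.77 to 15.3 ± 2.69 CPM, by 0.40 (SE 0.12, edgeR adjusted p = 0.0433). Celecoxib minus rofecoxib was -0.43 (SE 0.12, adjusted p = 0.0397). The call against control was lost without any 1 of 12 libraries, celecoxib replicate 4, rofecoxib replicates 1, 2, 4, 5 and 7 and control replicates 1, 2, 5, 6, 7 and 8, at adjusted p up to 0.0940. It was also lost without a filter on low counts, with only the 2 groups compared, with the replicate block, in replicates 1 to 4 or 5 to 8 alone and with the Hox covariate, at edgeR adjusted p from 0.0527 to 0.310. Mme, neprilysin, which also yields angiotensin 1-7, was lower with celecoxib than with rofecoxib, 7.54 ± 1.82 against 13.9 ± 5.56 CPM, with controls at 10.1 ± 3.88 between them. That difference was -0.89 (SE 0.25, adjusted p = 0.0423). Nln and Mme were the 2 of 16 tested peptidases that edgeR called lower in celecoxib than in rofecoxib, where 4.32% of all tested genes were. The Mme call was lost without a filter, with only the 2 groups compared and with the replicate block (edgeR adjusted p = 0.0633, 0.0615 and 0.0579). It was also lost in replicates 5 to 8 alone and with the Hox or neuron covariate (edgeR adjusted p = 0.847, 0.183 and 0.0611). With limma voom the adjusted p was 0.0504, and without rofecoxib replicate 5 and celecoxib replicate 2 the edgeR adjusted p was 0.0605. The Mme difference was 0.023 with adipocyte and endothelial levels as covariates, and that covariate fit took Nln to 0.07 for rofecoxib against control. All 12 general adipocyte markers were below 0 for celecoxib minus rofecoxib, at a median of -1.24. Of these edgeR called 7 lower, where it called 4.32% of all tested genes lower. That fit holds adipocyte and endothelial levels together, and the adipocyte level differs between the diets, so it cannot separate their part from that of diet. The part of adipose tissue in these results was not tested otherwise.

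Of 20 genes for receptor accessories and signalling, 19 were tested and edgeR called 1 in any comparison, Mtus1, whose product interacts with the type 2 receptor. For rofecoxib DESeq2 called 1 higher and 1 lower, and limma voom 1 lower. Over all tested genes edgeR called 3.88% higher and 3.06% lower for rofecoxib. Mtus1 fell with rofecoxib from 411 ± 48.0 to 284 ± 33.5 CPM, by 0.54 (SE 0.10, edgeR adjusted p = 0.0054), with 8 of 8 libraries below every control. That call was kept in all 24 fits that left out 1 library. The call was lost in replicates 1 to 4 alone, at -0.36 (adjusted p = 0.0926), and with the adipocyte and endothelial covariates, at -0.40 (adjusted p = 0.137). With celecoxib it was at -0.24 (SE 0.10, adjusted p = 0.295), with 6 of 8 below every control, and celecoxib minus rofecoxib was 0.30 (SE 0.10, adjusted p = 0.0691), which passed with DESeq2 (adjusted p = 0.0342) and in replicates 1 to 4 alone (adjusted p = 0.0497). With celecoxib 0 of 19 were called by edgeR, DESeq2 or limma voom, and 3 had an unadjusted edgeR p under 0.05 (13.6% of all tested genes). The values with the smallest p there were Rgs4, a brake on G protein signalling, at 0.60 (SE 0.20, adjusted p = 0.227), and Arrb1, β-arrestin 1, at 0.17 (SE 0.07, adjusted p = 0.287). Median log2 fold changes over the list were -0.02 for celecoxib and -0.04 for rofecoxib.

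The list for the mineralocorticoid receptor held 24 partners, targets and aldosterone synthesis genes, with 23 in the table and 17 tested. With rofecoxib 3 fell and 0 rose in edgeR, where 3.06% of all tested genes were lower and 3.88% higher. The 3 were Sgk1, Fkbp5 and Zbtb16, each also a target of the glucocorticoid receptor. DESeq2 called 4 lower and limma voom 3. The values were -0.51 for Sgk1, -0.82 for Fkbp5 and -0.99 for Zbtb16 (edgeR adjusted p = 0.0072, 0.0216 and 0.0228). All 3 calls were lost with the adipocyte and endothelial covariates (adjusted p = 0.145, 0.206 and 0.140) and in replicates 1 to 4 alone (adjusted p = 0.0621, 0.295 and 0.133), where Fkbp5 was -0.45 and Zbtb16 -0.62. Those of Sgk1 and Zbtb16 were lost in replicates 5 to 8 alone (adjusted p = 0.0965 and 0.0600), and those of Fkbp5 and Zbtb16 with the Hox covariate (adjusted p = 0.0803 and 0.0672). Sgk1, a kinase that retains sodium channels at the membrane, ran from 181 to 207 CPM in controls and from 118 to 169 with rofecoxib, with no overlap. With celecoxib it was at -0.37 (SE 0.10, edgeR adjusted p = 0.163), with 6 of 8 libraries below every control. For celecoxib edgeR called 0 of the 17, and 8 had an unadjusted edgeR p under 0.05 (13.6% of all tested genes). Of the list Sgk1 alone passed for celecoxib with DESeq2 (adjusted p = 0.0463) and limma voom (adjusted p = 0.0345). Hsd11b2, the enzyme that shields the receptor from glucocorticoids, had 129 reads over 24 libraries, and Hsd11b1, which regenerates glucocorticoids, stood at 20.6 ± 7.33 CPM in controls. Celecoxib minus rofecoxib for Hsd11b1 was -0.67 (SE 0.21, edgeR adjusted p = 0.0602), and 0.0030 with the adipocyte and endothelial covariates. It passed with DESeq2 (adjusted p = 0.0318) and in replicates 1 to 4 alone, at -0.91 (edgeR adjusted p = 0.0291). It also passed in 4 of the 24 fits that left out 1 library (lowest edgeR adjusted p = 0.0190).

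Of 18 genes that angiotensin II is known to regulate in vessels, 17 were tested. With rofecoxib 3 fell and 0 rose in edgeR, where 3.06% of all tested genes were lower, and DESeq2 and limma voom each called 5 lower. Of the 17, 14 were below 0 at a median of -0.24, while 54.9% of all tested genes were above 0 at a median of 0.02. Cyba, a subunit of the vascular NADPH oxidase, fell by 0.24 (SE 0.06, edgeR adjusted p = 0.0194), with 7 of 8 libraries below every control. Col1a1, a fibrillar collagen, fell by 0.49 (SE 0.14, adjusted p = 0.0334), and Tgfb1, a fibrogenic cytokine, by 0.56 (SE 0.16, adjusted p = 0.0414). The calls of Cyba, Col1a1 and Tgfb1 were all lost in replicates 1 to 4 alone (edgeR adjusted p = 0.252, 0.192 and 0.234), with the adipocyte and endothelial covariates (adjusted p = 0.249, 0.188 and 0.378) and with the Hox covariate (adjusted p = 0.0553, 0.110 and 0.137). In replicates 5 to 8 alone Cyba and Tgfb1 lost theirs (adjusted p = 0.0746 and 0.155), as did Tgfb1 without a filter on low counts (adjusted p = 0.0559). With celecoxib, against the same controls, 14 of 17 were also below 0 at a median of -0.24, where 50.4% of all tested genes were above 0. For celecoxib 0 were called by edgeR, DESeq2 or limma voom, and 4 had an unadjusted edgeR p under 0.05 (13.6% of all tested genes). These genes answer to many other signals, and angiotensin II itself was not measured.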

How the data were processed

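Poly(A)-selected RNA from thoracic aorta was sequenced in 24 libraries, 8 in each of 3 diet groups taken from the labels, which call them biological replicates. The authors deposited whole-number read counts per gene, and these counts were used as deposited. The submitters' processing notes list CASAVA 1.8.1, STAR 2.5.1b and mm9. Which counter, annotation and strand option were used is not given in the sources used here. Library totals ran from 21668798 to 21700121 reads, closer than sequencing usually leaves them, and how this arose was not given, so depth before that step is unknown. Counting intervals were not used. Libraries were built over several days, per the labels' protocols, with no day stated for any of them.

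Tests used edgeR 4.0.16 in R 4.3.3 with TMM scaling, the default filter on low counts (14528 genes left), 1 mean per group over all 24 libraries and the two-sided quasi-likelihood test, with calls at a p under 0.05 after Benjamini-Hochberg adjustment across those genes. The biological coefficient of variation was 19.6%. CPM are TMM-scaled, and levels per kilobase use GENCODE M21 exon lengths. Likeness between genes is the correlation of log2 CPM (prior count 2) after removing group means. All 9 members were named, with called genes of 4 pathway lists by smallest p, or otherwise the genes with the smallest p as values. Members and lists were chosen with earlier results of these data known. The posterior Hox and sympathetic neuron lists, their covariate fits and leaving out rofecoxib replicate 5 and celecoxib replicate 2 together were added after the data were seen. The fits were repeated with RLE size factors, with unscaled library sizes, other low-count filters, DESeq2 1.42.0, limma 3.58.1 voom, only the groups compared, the replicate number as a block, as a term for numbers 1 to 4 against 5 to 8, each of these sets alone, adipocyte and endothelial covariates, and leaving out each library. No 2 libraries agreed within sampling noise.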

Additional observations from a re-analysis of the deposited data

Results flagged for a closer look

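Of 27 combinations of a gene and a diet group, 5 had a library far from the other 7, where chance gives about 1 group in 20 and low counts give more. Ace in control replicate 3 was 328 CPM, while the other controls lay between 405 and 463. Agtr1a in rofecoxib replicate 5 was 13.8 CPM, while the other 7 lay between 2.01 and 5.66. Agtr2 was 0.492 CPM in rofecoxib replicate 5, against at most 0.047 in the others. It was 0.0447 CPM in control replicate 3 and 0.0443 CPM in celecoxib replicate 7, each a single read where the other 7 libraries had none. For 2 pathway genes the difference between the drug groups itself passed the edgeR test at these unequal doses: Nln at -0.43 and Mme at -0.89 for celecoxib minus rofecoxib on the log2 scale. Both are among the 16 tested peptidases, and 0 were called in the other pathway lists. Of all tested genes edgeR called 4.89% there, 4.32% lower and 0.564% higher in celecoxib.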

How the results depend on the processing

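Counts of called genes moved with the method. For celecoxib against control (5 in the fit as reported) they were 2 without a filter, 107 with DESeq2, 121 with limma voom, 45 with only these groups, 27 with the replicate block, 174 with a term for replicates 1 to 4 against 5 to 8, 9 and 313 in replicates 1 to 4 and 5 to 8 alone, 1 with adipocyte and endothelial covariates, 13 with the Hox covariate, 2 with the neuron covariate and 42 without rofecoxib replicate 5 and celecoxib replicate 2. For rofecoxib (1008) they were 557 without a filter, 1796 with DESeq2, 2448 with limma voom, 1735 with that term, 42 and 401 in those sets alone, 28 with the adipocyte and endothelial covariates and 192 with the Hox covariate. Between the drug groups (710) they were 1423 with DESeq2, 2073 in replicates 1 to 4 alone and 1 with the neuron covariate. They were 0 in edgeR without a filter, with only these groups, with the replicate block, in replicates 5 to 8 alone, with the adipocyte and endothelial or Hox covariates and without those 2 libraries; 835 to 4367 genes then had an unadjusted p under 0.05, and limma voom called 862. Leaving out 1 library gave 0 to 34, 358 to 1945 and 0 to 1997 calls, at the extremes without celecoxib replicate 7 and 2, control replicate 2 and rofecoxib replicate 8, and celecoxib replicate 2 and rofecoxib replicate 8; the counts of 0 had 1490 to 2058 and 2824 to 3250 genes at an unadjusted p under 0.05. The replicate numbers did not pair the libraries: same-numbered deviations correlated from -0.17 to 0.27, -0.30 to 0.56 and -0.17 to 0.48. With the replicate block Nln lost its calls (adjusted p = 0.0533 and 0.0623), as did Mme (0.0579), and Agtr1b for celecoxib minus rofecoxib turned to -0.00062. Several values changed sign, of which Mme for celecoxib minus rofecoxib alone was called in the fit as reported. Agt for celecoxib was 0.0256 with library size alone, 0.0022 without a filter, 0.19 in replicates 1 to 4, 0.0525 with adipocyte and endothelial covariates, 0.0020 with the Hox and 0.31 with the neuron covariate, and -0.27 to 0.13 leaving out 1 library; for rofecoxib it was -0.027 with limma voom, and for celecoxib minus rofecoxib 0.0508 with the adipocyte and endothelial covariates. Those covariates also turned Agtr1a (-0.037) and Nr3c2 (0.0789) for rofecoxib, and Mme (0.023) and Hsd11b1 (0.0030) for celecoxib minus rofecoxib. Enpep was 0.0837 for celecoxib in replicates 5 to 8 and -0.11 for rofecoxib in replicates 1 to 4. Agtr1b was -0.60 for celecoxib in replicates 1 to 4, -0.10 for rofecoxib with the Hox covariate, and for celecoxib minus rofecoxib -0.32 with limma voom, -0.77 in replicates 1 to 4 and -0.10 to 0.25 leaving out 1 library. Ccn2 for celecoxib minus rofecoxib was -0.026 in replicates 5 to 8. The cause was not tested. Fits on part of the libraries or with covariates leave fewer degrees of freedom. Between drug groups Nln lost its call in 12 fits that left out 1 library, at edgeR adjusted p up to 0.0954 (celecoxib replicates 2 to 6, rofecoxib replicates 1 to 5 and 7, control replicate 6). Mme lost its call there in 13, at up to 0.0945 (celecoxib replicates 2 to 5, rofecoxib replicates 1 to 4 and 7, control replicates 1, 2, 5 and 6). For rofecoxib against control Col1a1 lost its call in 6 such fits (without rofecoxib replicate 4, 6 or 7 or control replicate 1, 2 or 6). Tgfb1 lost its call against control in 9 (without rofecoxib replicate 2, 4, 6 or 7 or control replicate 1, 2, 5, 6 or 7).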
